A study of Homo sapiens with 3 samples.

Results

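Small nucleolar RNAs (snoRNAs) and small Cajal body RNAs (scaRNAs) were examined in 293T cells, an established human cell line derived from embryonic kidney cells, after knockdown of TARBP2, which binds double-stranded RNA and works with DICER1 in microRNA processing. The genes were taken by the symbol of the platform annotation (SNORD, SNORA or SCARNA followed by a number), with no use of measured values. This gave 301 genes on 304 probes, of 20046 genes on 30113 named probes. They comprised 176 C/D box snoRNAs (SNORD), 101 H/ACA box snoRNAs (SNORA) and 24 scaRNAs (SCARNA).

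The groups were siTARBP2, with 1 Illumina BeadChip array for siRNA 1 and 1 for siRNA 2, and siControl with 1 array. The cells of all 3 arrays were lipid-transfected in medium with 10% serum, and total RNA was taken after 48 h, treated with DNase and labelled with biotin. The labels name an siRNA control, whereas the series design describes mock transfection. Nothing says whether the arrays came from separate cultures, so the spread between the siTARBP2 arrays may be technical or lie in the different siRNAs. The p-values rest on that spread, mostly as shared over all genes, and hold no spread of siControl.

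Most snoRNAs of human cells lie in introns of longer host genes and are trimmed from the spliced intron by exonucleases. C/D box snoRNAs guide 2′-O-methylation, and H/ACA box snoRNAs guide pseudouridylation, mostly of ribosomal RNA. The scaRNAs do the same for spliceosomal RNAs in Cajal bodies, and a few snoRNAs, U3 among them, serve in the cleavage of the ribosomal precursor instead. Many snoRNA hosts encode ribosomal proteins or ribosome factors and start with a tract of pyrimidines.

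The starts of 6 host genes are shown because the small RNAs inside them, or the hosts themselves, recur in the results. They were chosen after their values were seen. Each run holds 20 bases before and 20 after the start annotated by RefSeq on GRCh38.p14, 5′ to 3′ on the strand of the gene. Capitals mark CTTT, the letters searched for.
SNHG10 (host of SCARNA13; chr14:95534853-95534892, minus strand): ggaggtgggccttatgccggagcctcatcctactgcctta
SNHG3 (host of SNORA73A and SNORA73B; chr1:28505923-28505962, plus strand): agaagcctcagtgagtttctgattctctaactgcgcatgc
SNHG12 (host of SNORA61; chr1:28581854-28581893, minus strand): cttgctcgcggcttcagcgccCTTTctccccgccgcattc
TAF1D (host of SNORA18 and SNORA25; chr11:93741476-93741515, minus strand): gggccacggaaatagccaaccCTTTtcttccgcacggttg
RPL13A (host of SNORD32A to SNORD35A; chr19:49487588-49487627, plus strand): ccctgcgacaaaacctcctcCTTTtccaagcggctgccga
RPL27A (host of SNORA3A and SNORA3B; chr11:8682772-8682811, plus strand): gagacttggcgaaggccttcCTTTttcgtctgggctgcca
The search covered the 81 hosts of members above background, of which 66 could be matched to a window. These hosts were thus chosen by detection in these data, and the promoters they are set against were not. CTTT stood on the gene's strand in 27 of the 66 host windows (40.9%), against 15.5% of 27305 promoters. Its reverse complement AAAG stood in 1 host window (1.52%), against 12.8% of promoters. A match describes these letters and is not a binding site.

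A probe was called above background where its deposited detection p-value was under 0.01. Of the 301 genes, 121 (40.2%) passed on at least 1 array, 93 passed on all 3 arrays and 180 on none. Of all named genes 58.7% passed on at least 1 array. By array, 35.5% of the member probes were above background with siRNA 1 and 33.9% with siRNA 2, against 36.2% in siControl. The 3 arrays therefore detected similar numbers.

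The classes differed in how many were detected. A share above background need not follow how abundant an RNA is in the cell. Of 20 ribosomal, spliceosomal and 7S RNAs, 14 were above background on at least 1 array. RNA18SN5, the 18S ribosomal RNA, was so in siControl only, and RNU2-1, the spliceosomal U2 RNA, on no array. Whether the probes read the mature small RNA or a longer RNA that holds it was not tested. H/ACA box snoRNAs were above background in 54 of 101 genes (53.5%), scaRNAs in 10 of 24 (41.7%) and C/D box snoRNAs in 57 of 176 (32.4%). Among the C/D box genes, those of the imprinted arrays (SNORD64, SNORD107 to SNORD109 and SNORD113 to SNORD116), which are best known from brain and placenta, were above background in 1 of 36 (2.78%). That gene was SNORD114-2, at a log2 signal of 5.40 with siRNA 1, 5.62 with siRNA 2 and 5.76 in siControl. The other C/D box genes were above background in 56 of 140 (40.0%). Annotated RNA length differed little with detection for C/D box genes (median 76 bases above and 75 not above background) and H/ACA box genes (134 bases in both sets), while scaRNAs had medians of 137 and 216 bases.

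**Figure D1:**
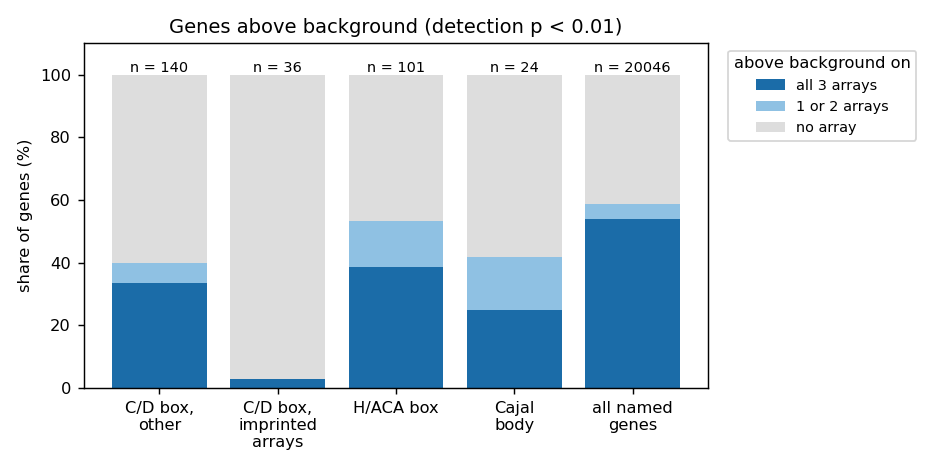
Share of genes (%) above background, by class, with all named genes at the right. Dark bars stand for all 3 arrays, light bars for 1 or 2 arrays and grey for none; the imprinted C/D box arrays were above background in 2.78% of genes and the H/ACA box class in 53.5%.

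Levels below are normalized log2 signals of the brightest probe of a gene, differences are log2 siTARBP2 minus siControl, and limma's moderated test with Benjamini-Hochberg adjustment ran over the 11768 named genes above background on at least 1 array. The target served as a check of the labels. TARBP2 stood at 6.27 with siRNA 1 and 6.09 with siRNA 2, against 8.38 in siControl. The mean difference of -2.21 ± 0.25 (moderated SE, n = 2 siTARBP2 arrays against 1) had a limma adjusted p of 0.328. Of markers of the line, LIN28B, NEFL, NEFM and HOXD13 were above background on all 3 arrays and PAX2 was not. Of markers of other cell types, PTPRC, CD3E, HBB, PECAM1 and KRT5 were not above background, ALB was so on the siControl array only, and COL1A1, of fibroblasts, was above background. Raw signal over all probes averaged 680.4 with siRNA 1, 514.3 with siRNA 2 and 528.5 in siControl. The member probes had median raw signals of 74.75, 66.7 and 65.5 on the same arrays, so a normalized level below siControl need not be a raw signal below it. The part of this depth difference in the results was not tested beyond the alternatives given.

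No snoRNA or scaRNA passed the test of siTARBP2 against siControl. The count at a limma adjusted p under 0.05 was 0 of 121, against 0% of all genes tested. At an unadjusted p under 0.05 it was also 0 of 121, against 1.73% of all genes. The lowest unadjusted p-values were 0.057 for SNORD76 and 0.063 for SNORA3A. SNORD76 was above background in siControl only, so it entered the test through the group where it was high. In 89 of the 121 genes (73.6%) the mean difference lay within 0.25 of siControl, close to the 74.3% of all genes tested. The number of arrays limits the precision: the median moderated SE over all genes was 0.256.

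With siRNA 1 more small RNAs lay below siControl than above it, by small amounts. In bulk RNA, fewer cells with an RNA and less of it per cell cannot be told apart. The shift held for 86 of the 121 genes (71.1%), against 49.1% of all genes tested. Among the genes above background on all 3 arrays it held for 71 of 93 (76.3%), against 49.3% of all genes. With siRNA 2, 67 of 121 lay below siControl (55.4%), against 46.0% of all genes. Both siRNAs placed 52 of 121 below (43.0%, against 27.2% of all genes) and 20 of 121 above (16.5%, against 31.9%). The siRNAs share the siControl array, so these shares are not independent of each other. With no filter on detection 166 of all 301 genes lay below siControl with siRNA 1, against 49.7% of all genes. With array medians set equal in place of quantile normalization, which moved the median of all genes with siRNA 1 to 0.31, 48 of 121 lay below, against 11.0% of all genes.

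In each class the median of the genes above background lay below siControl with both siRNAs, by differing amounts. C/D box genes had median differences of -0.21 with siRNA 1 and -0.06 with siRNA 2, and 44 of 57 lay below siControl with siRNA 1. H/ACA box genes had medians of -0.13 and -0.01, with 36 of 54 below. Among genes above background on all 3 arrays the order of these classes turned, with siRNA 1 medians of -0.20 (C/D box) and -0.23 (H/ACA box). The scaRNAs had medians of -0.06 and -0.02, with 6 of 10 below, and the medians of all genes tested were 0.00 and 0.03. Over all 301 genes, those not above background included, the medians were -0.02 and -0.01.

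Few members differed from siControl by 1.5-fold, a rule of size without a test. With siRNA 1, 7 were lower (5.79%, against 1.36% of all genes) and 1 was higher (0.826%, against 1.26%). The lower ones were the U3 copies SNORD3A, SNORD3C and SNORD3D with SNORD38B, SNORD42B, SNORA3A and SNORA59B, and the higher one was SNORD9. With siRNA 2, SNORD76, SNORD110 and SNORA27 were lower (3 genes, 2.48%, against 4.88%) and SNORD3C and SNORD46 were higher (2 genes, 1.65%, against 5.27%). The rule picked 0 members in the same direction with both siRNAs, against 0.476% of all genes lower and 0.450% higher. Of the members named here, SNORD3A, SNORD3D, SNORD38B and SNORA3A were above background on all 3 arrays. The others passed the filter on some arrays only, so the counts depend on the filter. On all 3 arrays, 4 of 93 members were lower with siRNA 1 (4.30%, against 0.954% of all genes so detected) and 0 higher (against 0.685%). With siRNA 2, 0 of 93 were lower (against 4.30%) and 0 higher (against 4.44%).

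**Figure D2:**
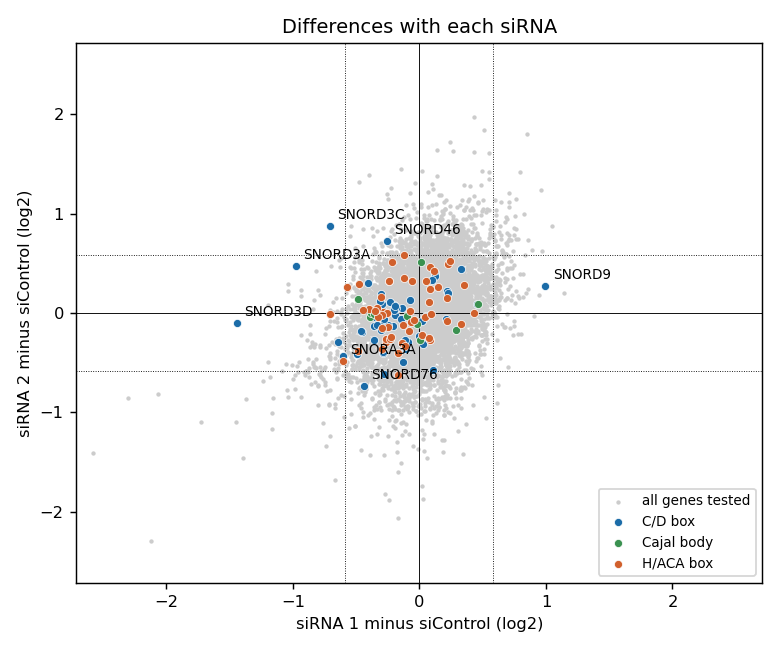
Log2 difference from siControl with siRNA 1 (x axis) and siRNA 2 (y axis), 1 point per gene; grey points are all genes tested, coloured points the snoRNA and scaRNA classes, dotted lines 1.5-fold. The U3 copies lie to the left, with SNORD3D at -1.45 on the x axis and -0.10 on the y axis; most other members lie within the dotted lines.

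The members that differed most between the siTARBP2 arrays were the copies of U3, the C/D box snoRNA that base-pairs with the ribosomal precursor and is needed for its early cleavages. SNORD3A (probe ILMN_3239574) stood at 6.50 with siRNA 1 and 7.95 with siRNA 2, against 7.48 in siControl. SNORD3D (ILMN_3242315) had raw signals of 99.6 and 144.9, against 158.6 in siControl. SNORD3C (ILMN_3241034) stood at 4.98, not above background, and 6.56, against 5.69 in siControl. In every copy the siRNA 1 array was the lowest of the 3, while the siRNA 2 array was highest for SNORD3A and SNORD3C and close to siControl for SNORD3D.

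The siTARBP2 arrays thus disagreed, and the mean differences had wide errors. SNORD3A differed from siControl by -0.97 with siRNA 1 and 0.47 with siRNA 2, with a mean of -0.25 ± 0.51 (moderated SE, n = 2 against 1). SNORD3D differed by -1.45 and -0.10, with a mean of -0.77 ± 0.49. SNORD3C was at least 1.35-fold lower with siRNA 1 and 1.83-fold higher with siRNA 2. The copies are nearly identical in sequence, so their probes may read the same RNA and are uncertain as separate genes. Their directions held under each change of background correction, normalization or source of values.

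Some other small RNAs that, like U3, are transcribed from their own promoters were also lowest with siRNA 1. RN7SK, which holds a transcription elongation factor inactive, stood at 7.03 with siRNA 1 and 8.27 with siRNA 2, against 7.85 in siControl. RNU6-1, the spliceosomal U6 RNA, stood at 8.46 and 9.63, against 9.39 in siControl. RNU4-1 and RNU4-2, copies of U4, were not above background with siRNA 1 (4.63 and 4.93), and stood at 5.91 and 6.18 with siRNA 2, against 5.83 and 5.97 in siControl. RNU11, of the minor spliceosome, differed by -0.01 and -0.03 only. RN7SK, RNU6-1 and the U4 copies were chosen after their values were seen. Their part in the U3 result was not tested.

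The list of 20 ribosomal, spliceosomal and 7S RNAs, which includes these, had 14 genes above background on at least 1 array and 8 on all 3. Of the 14, 8 lay below siControl with both siRNAs. Over the 8 above background on all 3 arrays the median differences were -0.90 with siRNA 1 and -0.34 with siRNA 2. Of these 8, 4 were lower by 1.5-fold with both siRNAs, against 0.333% of all genes above background on all 3 arrays. All 4 were genes or variants of U1 (RNU1-1, RNU1-3, RNVU1-18 and RNVU1-7). Their probes may read the same RNA, so they are uncertain as separate genes. The U1 variant RNVU1-18 stood at 6.03 and 6.53, against 7.39 in siControl. RNA28SN5, the 28S ribosomal RNA, stood at 4.89 (not above background) and 6.07, against 7.47 in siControl. RN7SL1, the RNA of the signal recognition particle, was the highest of the list, at 13.17 and 13.40 against 12.87 in siControl. Of the 14, 0 passed limma's adjusted test and 7 had an unadjusted p under 0.05, against 1.73% of all genes tested. The 4 U1 genes were among these 7. Some of the 14 were above background in siControl only, so these counts give no support to a direction.

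**Figure D3:**
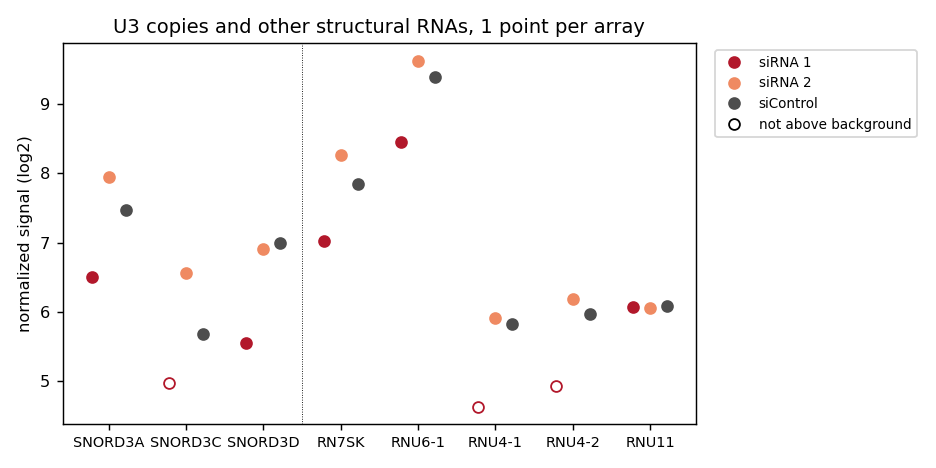
Normalized log2 signal on each array (1 point per array; siRNA 1, siRNA 2, siControl) for the U3 copies and, right of the dotted line, other structural RNAs; open points were not above background. The siRNA 1 point is lowest in each gene but RNU11, for example 6.50 against 7.48 in siControl for SNORD3A.

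The remaining snoRNAs of ribosomal precursor cleavage lay on both sides of siControl. Of the 11 such genes on the array, 10 were above background, and the exception, SNORD13, was listed at 4.42 and 5.17, against 4.68 in siControl. U14, needed to make 18S ribosomal RNA, has 4 copies here. SNORD14C stood at 7.49 with siRNA 1 and 7.37 with siRNA 2, against 7.77 in siControl, and SNORD14D at 7.11 and 6.76, against 7.25. Both of these copies lay below siControl on both arrays, and both lie within HSPA8. SNORD14A and SNORD14B, within RPS13, were below siControl with siRNA 1 (-0.19 and -0.20) and above it with siRNA 2 (0.04 and 0.08). U17, a cleavage RNA of the H/ACA class, was close to siControl in both copies: SNORA73A differed by -0.07 and -0.09, and SNORA73B by -0.05 and -0.07. SNORA73B has more than 1 probe, and its mean difference was -0.06 by the brightest probe and -0.12 with probes averaged. SNORD22, known from Xenopus as needed for 18S processing, was higher than siControl by 0.12 and 0.40.

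Among the members above background on all 3 arrays, SNORA3A (ILMN_3239108), an H/ACA box RNA, had the lowest mean difference after SNORD3D. It stood at 5.51 with siRNA 1 and 5.63 with siRNA 2, against 6.11 in siControl. Both siTARBP2 arrays lay below siControl and close to each other, with a mean of -0.54 ± 0.25 (moderated SE, n = 2 against 1) and a limma unadjusted p of 0.063. SNORD38A and SNORD38B are related C/D box guides of 28S ribosomal RNA. SNORD38A stood at 5.67 and 5.76, against 6.17 in siControl, and SNORD38B at 5.35 and 5.70, against 5.99. SNORA24, an H/ACA box RNA within SNHG8, stood at 7.11 and 7.22, against 7.60 in siControl. Its raw signals were 216.9, 169.3 and 216.2, so the siRNA 1 array was below siControl only after normalization.

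The other 10 of the 15 lowest had mean differences between -0.34 and -0.26. They were SNORD14C and SNORD14D, SNORD15B, SNORA25, SNORD100, SNORD43, SNORD4A, SNORA63, SNORA18 and SNORA26. SNORA26 stood at 6.17 on both siTARBP2 arrays, against 6.44 in siControl. All of these lay below siControl with both siRNAs, as did the 5 lowest.

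The highest mean difference among members above background on all 3 arrays was that of SNORD16 (ILMN_1669210), a C/D box RNA within RPL4 that guides methylation of 18S ribosomal RNA. It stood at 6.44 with siRNA 1 and 6.55 with siRNA 2, against 6.11 in siControl, a mean difference of 0.38 ± 0.25 (moderated SE, n = 2 against 1). SNORA12 (ILMN_3238435), an H/ACA box RNA within CWF19L1, stood at 7.71 and 7.98, against 7.48 in siControl (0.36 ± 0.26). Both arrays were above siControl in these genes, by raw signal too. SNORD12C, SNORA14B, SNORD22, SCARNA14, SNORD65, SNORA57, SNORD49A, SNORD87, SNORD89, SNORA11D, SNORA6, SNORA66 and SNORA59A, the other 13 of the 15 highest, had mean differences between 0.13 and 0.27. SNORA57 and SNORA59A were below siControl with siRNA 1 (-0.12 and -0.06) and above it with siRNA 2 (0.58 and 0.32).

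**Figure D4:**
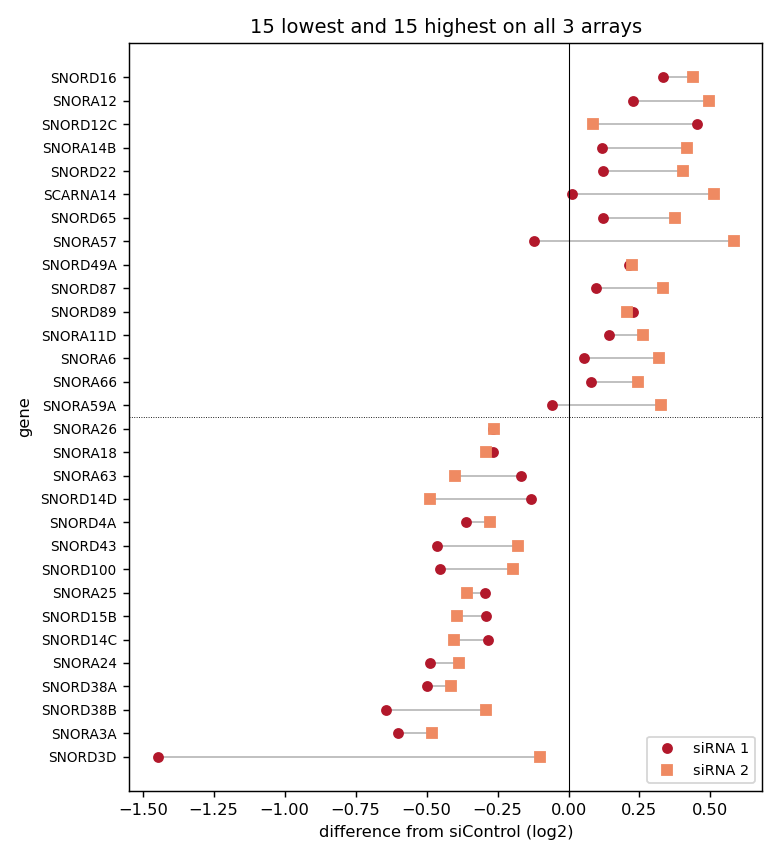
Log2 difference from siControl with siRNA 1 (circles) and siRNA 2 (squares) for the 15 highest (above the dotted line) and 15 lowest members above background on all 3 arrays. The circles and squares of SNORA3A (-0.60 and -0.48) and SNORD16 (0.33 and 0.44) lie close together, while those of SNORD3D lie far apart.

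Dim members gave bounds only. SNORD76, a C/D box RNA within GAS5, stood at 5.12 and 4.83, both not above background, against 5.56 in siControl, which makes it at least 1.19-fold lower (mean of both arrays). SNORD9, a guide of U6 RNA, stood at 5.60 with siRNA 1, against 4.61 in siControl, not above background, so it was at least 1.24-fold higher. With siRNA 2 it was not above background either (4.87). SNORD46 stood at 5.89 with siRNA 2 and was not above background with siRNA 1 (4.91), against 5.16 in siControl, also not above background, so it was at least 1.52-fold higher with siRNA 2. With siRNA 1, SNORD42B and SNORA59B were not above background and were at least 1.11-fold and 1.48-fold lower than siControl. With siRNA 2, SNORD110 and SNORA27 were not above background and were at least 1.01-fold and 1.19-fold lower.

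The siTARBP2 arrays also differed from each other. With siRNA 1, 11 members were 1.5-fold lower than with siRNA 2 (9.09%, against 5.01% of all genes) and 2 were higher (1.65%, against 5.12%). The lowest were SNORD3C, SNORD3A and SNORD3D, then SNORD46 and SNORA23, an H/ACA box RNA that stood at 5.23 (not above background) with siRNA 1 and 6.06 with siRNA 2. Without the U3 copies the count of lower members was 8 of 118, against 5.01% of all genes. Among members above background on all 3 arrays, 5 of 93 were lower (5.38%, close to the 4.44% of all genes so detected) and 1 was higher (1.08%, against 4.68%). The 5 highest were SNORD9, SNORD17, SCARNA16, SNORA27 and SNORA22. SNORD17 stood at 6.48 with siRNA 1 and 5.80 with siRNA 2, against 6.38 in siControl, and its host SNX5, a sorting nexin, at 10.87 and 10.12, against 10.82. In both genes the siRNA 2 array alone was low.

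Of the scaRNAs above background, SCARNA10, which guides modification of the U5 spliceosomal RNA, stood at 8.50 with siRNA 1 and 8.85 with siRNA 2, against 8.89 in siControl. SCARNA22 stood at 7.14 and 7.52, against 7.52 in siControl, and SCARNA14 at 6.33 and 6.83, against 6.32. The siRNA 1 array was the low one for the first pair, and the siRNA 2 array the high one for SCARNA14. Differences over the 6 scaRNAs above background on all 3 arrays ran from -0.39 to 0.01 with siRNA 1 and from -0.27 to 0.51 with siRNA 2.

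The host genes lay around siControl as a group. By the RefSeq gene table of GRCh38.p14, 294 of the 301 members lie within a longer gene, taken as host without a check of strand, since the table gives none. Of the 121 members above background, 117 had such a host, in 85 cases protein coding and in 30 a long noncoding RNA. For 95 of these members the host was above background too, 65 different genes in all. The hosts had median differences of 0.03 with siRNA 1 and -0.02 with siRNA 2, against -0.19 and -0.04 for the 95 small RNAs. Pearson's r between small RNA and host, across the 95 pairs and as a description only, was -0.08 with siRNA 1 and 0.06 with siRNA 2. Over the 74 pairs whose small RNA was above background on all 3 arrays, r was -0.10 with siRNA 1 and 0.23 with siRNA 2. The pairs share arrays, and small RNAs of 1 host share that host.

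Clusters of small RNAs in 1 host gave examples. Within RPL13A, a ribosomal protein gene, SNORD32A, SNORD33, SNORD34 and SNORD35A were all below siControl with siRNA 1 (-0.29 to -0.14). With siRNA 2, 2 of these 4 were below (-0.30 to 0.05), and the host differed by 0.11 with siRNA 1 and 0.43 with siRNA 2. Within RPL23A, SNORD4A, SNORD4B and SNORD42B, the last not above background there, were below with siRNA 1 (-0.60 to -0.23). With siRNA 2, 2 of the 3 were below (-0.43 to 0.11), beside host differences of 0.11 with siRNA 1 and 0.21 with siRNA 2. Within RPL27A, SNORA3A and SNORA3B were below on both arrays, and the host differed by -0.05 and -0.12. Within SNHG12, a noncoding host, SNORA61 stood at 9.48 with siRNA 1 and 9.86 with siRNA 2, against 9.82 in siControl, beside host differences of -0.08 and 0.02. Within TAF1D, a factor of RNA polymerase I, all 6 members above background were below siControl with siRNA 2 (-0.36 to -0.08) and 3 of 6 with siRNA 1, beside host differences of -0.03 on both arrays. Other clusters went the other way or were mixed. SNORD49A and SNORD65, within SNHG29, were above siControl on both arrays (0.12 to 0.38), and within ZFAS1 SNORD12 was below it on both (-0.28 and -0.09) and SNORD12C above it on both (0.45 and 0.09).

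A pair of noncoding hosts lay further from siControl than the small RNAs inside them. SNHG10 stood at 6.54 with siRNA 1 and 7.09 with siRNA 2, against 7.77 in siControl, a mean difference of -0.96 ± 0.30 (limma unadjusted p of 0.013, adjusted p of 0.99991), while SCARNA13 inside it stood at 6.44 and 6.35, against 6.46 in siControl. SNHG3 stood at 5.06 (not above background) and 5.54, against 6.06 in siControl. By their brightest probes, SNORA73A and SNORA73B inside it lay within 0.10 of siControl. Both siTARBP2 arrays were below siControl for these hosts. Over the 14 host noncoding RNAs of the GAS5 and SNHG list above background (of 17), the median differences were -0.10 and -0.01, and 0 passed limma's adjusted test (2 at an unadjusted p under 0.05, against 1.73% of all genes tested). SNHG1 differed by -0.47 and -0.17, and the highest, SNHG7, SNHG5 and SNHG17, had means of 0.19, 0.19 and 0.18.

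**Figure D5:**
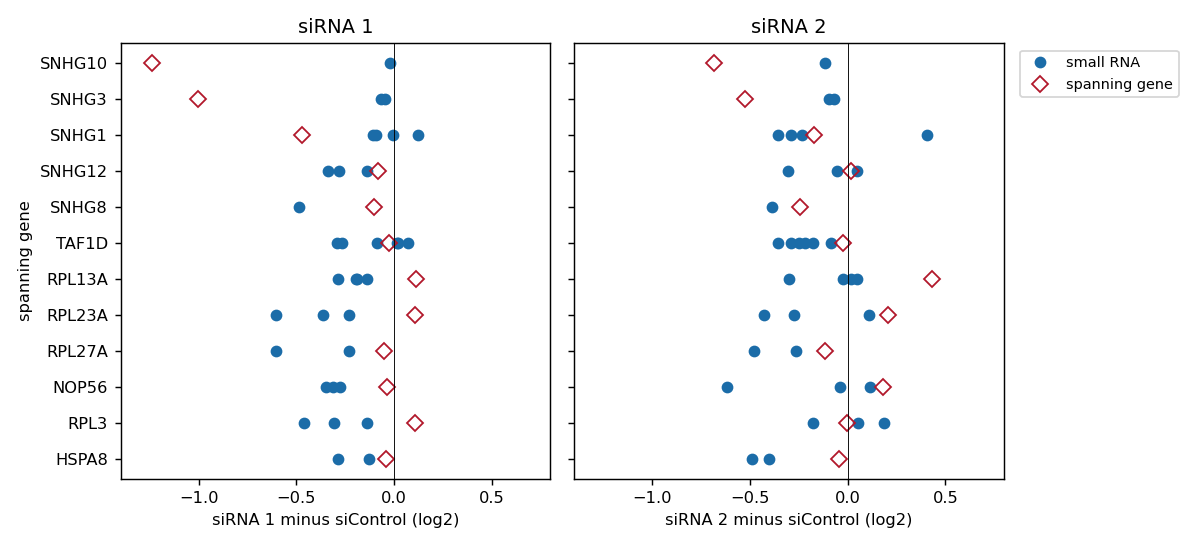
Log2 difference from siControl with siRNA 1 (left) and siRNA 2 (right) for 12 hosts (diamonds) and the small RNAs within them (circles), chosen after their values were seen. With siRNA 1 SNHG10 lies at -1.24 and SCARNA13 at -0.02, while the circles of RPL13A and RPL27A lie left of their diamonds; circles include members not above background on some arrays.

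The proteins that carry the small RNAs were near siControl. The core C/D box proteins FBL (the methyltransferase), NOP56, NOP58 and SNU13 and the core H/ACA box proteins DKC1 (the pseudouridine synthase), GAR1, NHP2 and NOP10 were above background on all 3 arrays. Their mean differences ran from -0.12 for NOP58 to 0.20 for NOP10. Of 16 assembly and trafficking factors, ZNHIT6 differed most, by 0.14 with siRNA 1 and -0.77 with siRNA 2, followed by RUVBL2 (0.34 and 0.25) and PHAX (-0.15 and -0.34). Of 11 factors of 3′ end processing and turnover, the exonuclease XRN1 differed by 0.05 and -0.64, and the poly(A) polymerase TENT4B by -0.21 and 0.59. All 35 were tested and 0 passed limma's test, adjusted or at an unadjusted p under 0.05.

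The authors' deposited table, which gives 1 log fold change per accession and a class of 0 or 1 (up-regulated), held 303 of the 304 member probes. It put SNORA12 in the up-regulated class, with a log fold change of 0.21, and no other member. The share of all accessions put in that class was not counted, so this result stands without a comparison. The lowest in the authors' deposited table were SNORD3D (-0.28), SNORA24 (-0.24) and SNORA25 (-0.24). Its header does not state the log base.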

How the data were processed

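Arrays of 2 siTARBP2 samples and 1 siControl sample were used. The deposited non-normalized table holds an average signal intensity and a detection p-value per probe and array, per the file headers. The authors also deposited normalized intensities, and the submitters' processing notes name lumi with no version. A further table of the authors gives a log fold change, treated as log2.

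Signals were corrected with neqc of limma 3.58.1 (R 4.3.3, offset 16), which takes the background from the detection p-values, quantile normalizes and gives log2 values. Both steps can widen differences of dim probes and hide shifts common to most probes. Of 47323 probes, 30113 had 1 symbol, 8 had several and 17202 were not listed. The brightest probe stood for a gene, kept where any array had a detection p under 0.01. The test was limma's lmFit and eBayes, two-sided, adjusted by Benjamini-Hochberg across 11768 genes. It had 1 residual and 6.78 prior degrees of freedom, so the errors come mostly from all genes. Single arrays were compared by a 1.5-fold rule with no test.

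Where a probe was above background on no array of 1 group, the fold is a bound ("at least"): the brighter group's mean over the dim group's, with each dim signal replaced by the lowest one above background on its array if that was higher. The members and gene lists were chosen with earlier results of these data known. The naming rule took the 15 highest and 15 lowest mean differences among members above background on all 3 arrays. It also took the 5 highest and 5 lowest of siRNA 1 against siRNA 2, the cleavage snoRNAs and members past 1.5-fold with both siRNAs. Hosts of these members, the 3 largest differences of each protein list and the 3 highest and lowest of the other RNA lists came last. Some that meet the rule are not described above: RNA5S9 (mean difference -1.09), RNU6ATAC (-0.07), EXOSC9 (-0.15) and several hosts. SNORD110, SNORD42B, SNORD76, SNORA59B, the scaRNAs and the host clusters described were named after their values were seen. Hosts were to be matched by strand, but the gene table gives no strand. Alternatives changed background correction, normalization, source of values, filter, probe choice and variance prior. Counts of members below siControl, counts without the U3 copies, detection on siControl and the TARBP2 alternatives were added after seeing the data.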

Additional observations from a re-analysis of the deposited data

How the results depend on the processing

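Under every alternative with a test, 0 members passed limma's adjusted test. Of all genes tested, 1 passed with equal medians, 1 with a trended, robust variance prior and 0 otherwise. In both cases this gene was TARBP2, so the count of 0 members says little. At an unadjusted p under 0.05 there were 6 members with no filter, 2 with probes averaged within genes and 0 otherwise. The shares of all genes beside the 6 and the 2 were not counted. The counts of 1.5-fold members were small and changed with the processing. Higher with siRNA 1 there were 0 without background correction, with offset 50, with the authors' normalized intensities and with detection on all 3 arrays, and 2 with equal array medians, with no filter and with detection p under 0.05. Lower with siRNA 1 there were 2 without background correction, with offset 50 and with the authors' intensities, and 4 with equal medians, on all 3 arrays and without the U3 copies. Higher with siRNA 2 there were 0 without background correction, with the authors' intensities and on all 3 arrays, and 1 with offset 50 and without the U3 copies. Lower with siRNA 2 there were 0 without background correction, with offset 50, with the authors' intensities and on all 3 arrays. Below siControl with siRNA 1 there were 48 of 121 with equal medians and 166 of 301 with no filter. With detection on siControl there were 85, out of fewer than 121 members, against 50.7% of all genes. Below with both siRNAs there were 101 of 301 with no filter, against 29.7% of all genes. That excess was smaller than as reported (52 of 121, against 27.2%). The C/D box median of the mean difference was -0.14 as reported, -0.040 with equal medians, -0.018 with no filter, and -0.21 to -0.06 with 1 siTARBP2 array left out. That of H/ACA box genes was -0.09 as reported, -0.014 with equal medians and -0.026 with no filter. That of the 10 scaRNAs was -0.10 as reported, -0.051 without background correction, -0.053 with the authors' intensities, -0.064 with offset 50, -0.020 with equal medians, 0.016 with no filter, -0.067 with detection p under 0.05, and -0.059 to -0.020 with 1 siTARBP2 array left out. TARBP2 passed with equal medians (adjusted p of 0.0379, limma) and with a trended, robust variance prior (0.00423), and its adjusted p ran from 0.00423 to 1 over the alternatives. Of the alternative values of named members 334 kept their direction and 3 reversed, all with equal medians: SNORA73A (0.011), SNORA73B (0.030) and SNORD14A (0.034). The cause of these changes was not tested. No paired analysis was possible because siControl has 1 array. Signal over background limits the 180 members not above background, and with 1 siTARBP2 array left out no test remains.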
